A study of Bos taurus with 8 samples.

Results

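The miRNAs miR-192, miR-194 and miR-215 (bta-miR-192, bta-miR-194 and bta-miR-215 in the deposited table) were measured in the blood of 4 cows by small RNA sequencing of paired plasma and blood cells. They are 3 of the 704 miRNA names in that table, taken by name, and 565 of the 704 are bovine names. The animals, numbered 44 to 47, were healthy, cycling, non-pregnant young Holstein-Friesian cross females, and none was treated. Plasma was centrifuged, passed through a fine filter and extracted from 0.7 mL, while the blood cell fraction was the resuspended pellet (250 μL) of red blood cells and buffy coat from the same blood sample. Each cow gave 1 library per fraction, so that n = 4 for plasma and n = 4 for blood cells, and the pellet is a mixture in which fewer cells with a miRNA and fewer copies per cell cannot be told apart. Libraries were read for 36 bases and held 1453384 to 4296460 miRNA reads in plasma and 11169204 to 14471979 in blood cells. The red blood cell miRNAs miR-451, miR-486 and miR-144 summed to 89165 to 180387 RPMM (reads per 1000000 mapped bovine miRNA reads) in plasma libraries, and to 488193 to 561169 RPMM in those of blood cells.

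miRNAs are short RNAs that guide repression of messenger RNAs through a seed near their 5′ end. In mammals miR-192 and miR-215 share a seed and are close relatives in sequence, whereas miR-194 has a different seed and is made from the same transcripts as either of them. The family is known for high expression in the epithelium of the intestine, in liver and in kidney, where hepatocyte nuclear factors drive it, and in human cells p53 activates it and it restrains cell division. In the deposited table, which uses the bosTau4 assembly and gives 1 location per name, miR-192 stands at chr29:44934770-44934792 on the minus strand and spans 23 bases. miR-194 stands at chrUn.004.2:1796091-1796112 and miR-215 at chrUn.004.2:1796387-1796408, both on the plus strand of an unplaced record and 22 bases long, with 274 bases between them. The RefSeq annotation of the ARS-UCD2.0 assembly holds a gene for all 3 names and lists 4 genes under the name miR-194, of which 2 are called miR-194b. MIR194-2 is the neighbour of MIR192 on chromosome 29, and both lie inside the span of EHD1, with MIR194B-2 beside them. MIR194-1 is the neighbour of MIR215 on chromosome 16, and both lie inside the span of IARS2, with MIR194B beside them. Reads of MIR194-1 and MIR194-2 can therefore stand under 1 name in the table, whichever location is listed.

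All 3 miRNAs were called higher in plasma than in blood cells, by very different amounts. Of all 209 names tested, 85.2% were called, 45.5% as higher in plasma and 39.7% as lower, and the 3 calls stand against that background. miR-215 differed most, at 28947 ± 18053 RPMM in plasma against 16.9 ± 16.3 RPMM in blood cells (SD, n = 4 each). miR-192 followed, at 101853 ± 23416 against 1908 ± 107 RPMM, and miR-194 differed least, at 962 ± 222 RPMM in plasma against 123 ± 17.8 RPMM in blood cells (SD, n = 4 each). Together they took 9.18 to 16.4% of the bovine miRNA reads of a plasma library and 0.190 to 0.213% of those of a blood cell library.

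**Figure D1:**
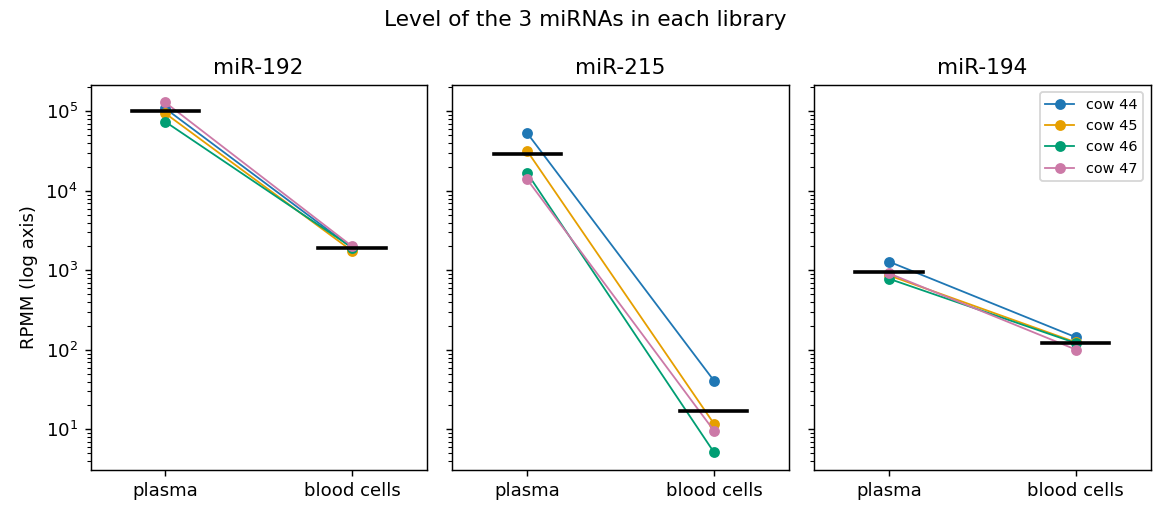
RPMM (log axis) of miR-192, miR-215 and miR-194 in plasma and blood cells; each line joins the 2 libraries of a cow and black bars are means over the 4 cows. miR-215 has the steepest lines and the widest spread between cows, 13933 to 53339 RPMM in plasma against 5.16 to 41.1 RPMM in blood cells.

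miR-192 was among the 3 most abundant names in every plasma library. Its level was 108988 RPMM in the plasma of cow 44, 94615 in cow 45, 74141 in cow 46 and 129668 in cow 47, against 1920, 1758, 1938 and 2013 RPMM in the blood cells of the same cows. Cow 47 was highest and cow 46 lowest in plasma, and the blood cell libraries were close to each other. In blood cells it stood at rank 35 to 40 of the names. Within a cow, plasma held 38.3 to 64.4 times the RPMM of blood cells. Fitted over the paired cows, plasma over blood cells gave a log2 fold change of 4.04 ± 0.23 (standard error; edgeR quasi-likelihood, adjusted p = 9.04e-06; 4 of 4 cows higher). This test used TMM scaling, which estimates the scale between libraries from the bulk of the miRNAs and left a median log2 fold change of 0.08 over the 209 names tested. With library totals alone that median was 1.76 and miR-192 was at 5.71.

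miR-215, the seed relative of miR-192, was abundant in plasma and had few reads in blood cells. It had 53339 RPMM in the plasma of cow 44, 31786 in cow 45, 16728 in cow 46 and 13933 in cow 47, against 41.1, 11.8, 5.16 and 9.65 RPMM in the blood cells of the same cows. Cow 44 was highest in both fractions and cow 45 second in both, while the lowest level was in cow 47 in plasma and in cow 46 in blood cells. The blood cell values rest on 459, 171, 62 and 112 reads, and the lowest of them, in cow 46, has a 95% exact binomial interval of 3.96 to 6.62 RPMM, an interval for counting alone, as copies made by PCR are not separate molecules. By abundance miR-215 stood at rank 4, 8, 17 and 20 in the plasma of cows 44 to 47, and at rank 127 to 201 in blood cells. The log2 fold change was 9.30 ± 0.33 (standard error; edgeR quasi-likelihood, adjusted p = 4.02e-06; 4 of 4 cows higher), the eighth largest of the 209 tested, or 10.97 with library totals alone. miR-215 reached the abundance needed for testing, 25 RPMM in 3 of 4 libraries of a fraction, through plasma, so that only a name high in plasma could have been tested from such blood cell levels, whereas miR-192 and miR-194 reached it in both fractions.

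miR-194, which shares a transcript with each of its relatives, was far less abundant than either in plasma. In blood cells it had fewer reads than miR-192 but more than miR-215. It had 1286 RPMM in the plasma of cow 44, 864 in cow 45, 784 in cow 46 and 916 in cow 47, against 144, 125, 122 and 101 RPMM in the blood cells of the same cows. Cow 44 was again highest in both fractions. It stood at rank 62 to 82 in plasma and at rank 93 to 97 in blood cells. The log2 fold change was 1.28 ± 0.19 (standard error, edgeR quasi-likelihood, adjusted p = 0.000906, 4 of 4 cows higher), against 2.95 with library totals alone. Its size thus depends on the scaling, while its direction and its call were the same under both. Both scalings come from the miRNA reads, and no absolute scale was used.

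**Figure D2:**
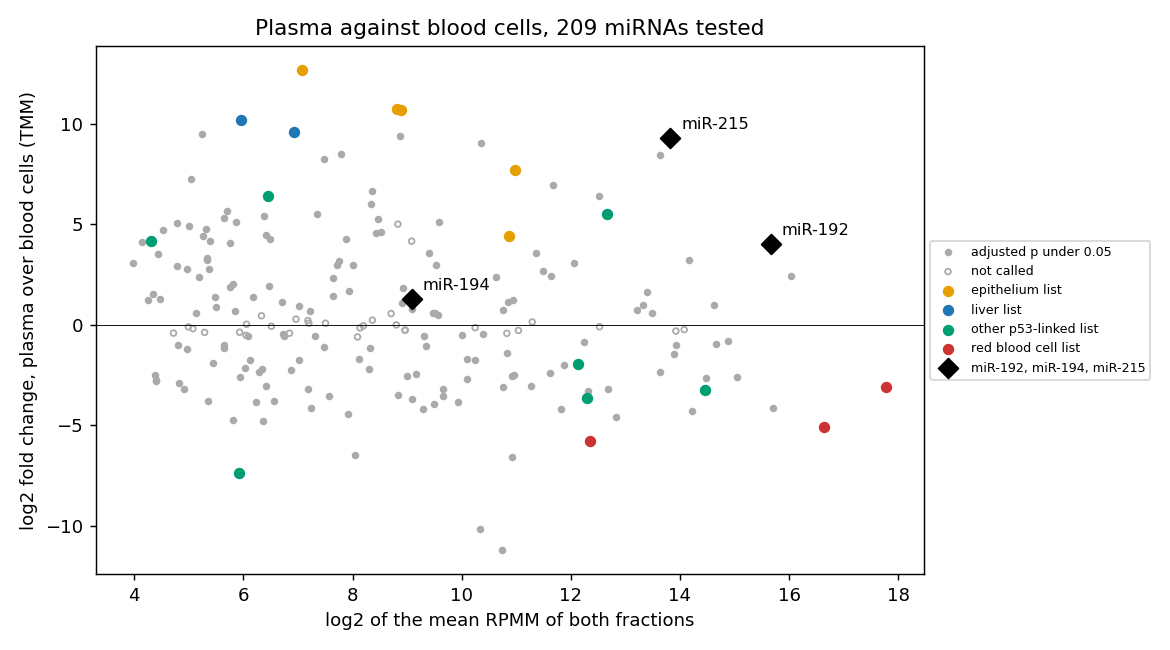
TMM-scaled log2 fold change, plasma over blood cells (vertical), against the log2 of the mean RPMM of both fractions (horizontal) for the 209 miRNAs tested. Filled grey points have an adjusted p under 0.05 and open points were not called. Colours mark the epithelial, liver, other p53-linked and red blood cell lists. miR-215 (9.30) lies near the liver names (9.59 and 10.2) and within the range of the epithelial names (4.45 to 12.7), but at higher abundance. miR-192 (4.04) is the most abundant of the 3 and miR-194 (1.28) lies near the bulk.

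The order of the 3 miRNAs was not the same in plasma and blood cells. In every plasma library miR-192 was highest, miR-215 second and miR-194 lowest, and in every blood cell library miR-192 was highest, miR-194 second and miR-215 lowest. Their ranges over the 4 cows did not overlap within either fraction. The levels compared are numbers of reads of RNAs of nearly equal length, and how efficiently each of the 3 enters a library was not measured.

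Ratios of reads within a library, which need no scaling between libraries, did not overlap between plasma and blood cells for any of the pairs. How many other pairs of names separate likewise was not counted, and 85.2% of the 209 names tested were called on their own. The ratios use the same reads as the fold changes above, so they are not separate support. For 1000 reads of miR-192 there were 489, 336, 226 and 107 reads of miR-215 in the plasma of cows 44, 45, 46 and 47, against 21.4, 6.71, 2.66 and 4.79 reads in their blood cells. Relative to miR-192, its seed relative was thus higher in plasma, by a mean log2 difference of 5.26 ± 0.93 (SD, n = 4 cows), in 4 of 4 cows. For 1000 reads of miR-192 there were 11.8, 9.13, 10.6 and 7.07 reads of miR-194 in the same plasma libraries, against 75.1, 70.8, 62.8 and 50.1 reads in blood cells. This ratio was lower in plasma in 4 of 4 cows, by a mean log2 difference of -2.76 ± 0.17 (SD, n = 4), although miR-194 itself had more RPMM there. Each read of miR-194 stood beside 41.5, 36.8, 21.3 and 15.2 reads of miR-215 in the plasma of cows 44 to 47 and 0.285, 0.0948, 0.0424 and 0.0956 reads in their blood cells, a mean log2 difference of 8.02 ± 0.90 (SD, n = 4). The exact two-sided permutation test over the paired cows gave p = 0.12 for each of the 3 ratios and 0.12 after adjustment over the 3, the smallest p that 4 pairs allow.

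Set against both of its genomic partners at once, miR-194 gave 7.44 ± 1.02 reads per 1000 reads of miR-192 and miR-215 in plasma, against 64.1 ± 10.5 in blood cells (SD, n = 4 each). The plasma libraries spanned 6.38 to 8.63 and the blood cell libraries 49.9 to 73.6. Reads of miR-192 and miR-215 can in part be counted under either name, since the authors let a read differ at 1 base from the known sequence, and no sequences were at hand to find how many. The summed reads of both names had a log2 fold change of 4.38 ± 0.24 (standard error; edgeR quasi-likelihood, adjusted p = 7.56e-06).

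**Figure D3:**
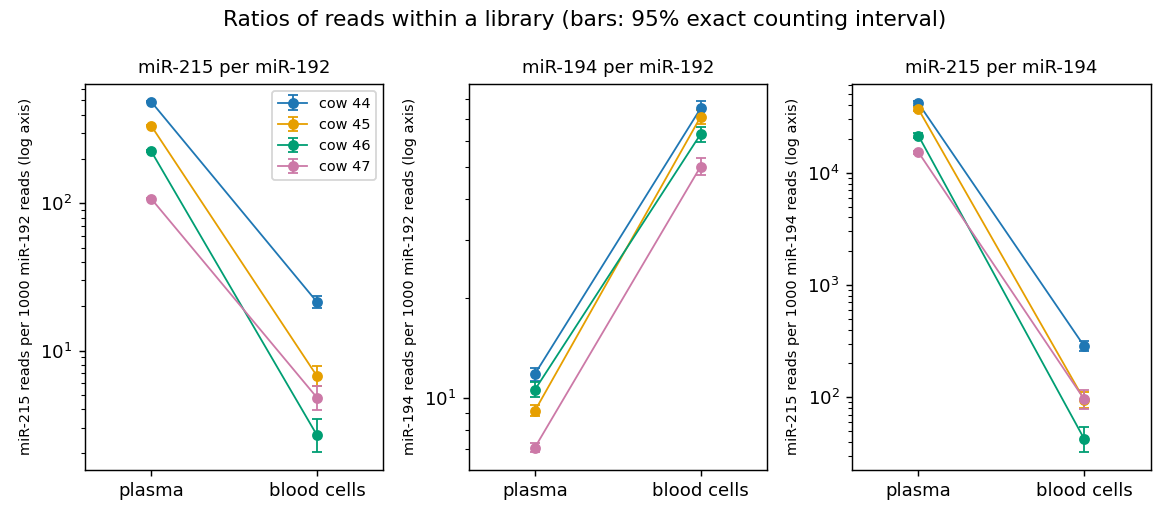
Reads of a miRNA per 1000 reads of another in the same library (log axes) for plasma and blood cells; lines join the libraries of a cow and bars are 95% exact binomial counting intervals. In all 4 cows the plasma points of miR-215 relative to both others lie above the blood cell points, and those of miR-194 relative to miR-192 lie below, with 7.07 to 11.8 reads per 1000 in plasma and 50.1 to 75.1 in blood cells.

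The spread between cows was wide for miR-215 and smaller for its relatives. In plasma the coefficient of variation was 62.4% for miR-215, 23.1% for miR-194 and 23.0% for miR-192, against a median of 23.6% over 199 tested names with a plasma mean of at least 25 RPMM, of which 13 varied more than miR-215. In blood cells miR-215 reached 96.5%, at low counts, and miR-192 only 5.62%, where the median over 141 tested names with a blood cell mean of at least 25 RPMM was 15.8% and 135 of them varied more than miR-192. The highest plasma level of miR-215 was 3.83 times the lowest, and for miR-192 it was 1.75 times. Each cow gave 1 library per fraction, so differences between cows have no test.

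The blood cell library of cow 44 stood apart for miR-215 but not for its relatives. Its 41.1 RPMM were 4.26 times the median of the other 3 cows, while its miR-192 and miR-194 were at 0.991 and 1.19 times that median. The plasma library of cow 44 was also high in miR-215, at 3.19 times the median of the other cows. Of 203 tested names with a median of at least 3 reads in the other cows, 7 were over 3 times the median of the other cows in this library, against 1 in the blood cells of cow 45 and 0 in those of cow 46 and cow 47. Besides miR-215 these were miR-133a, miR-143, miR-10b, miR-145, miR-34a and miR-199a-5p, singled out after their values were seen. All 7 had more RPMM in plasma than in blood cells. That direction was common, since scaling by library totals alone gave 67.0% of the 209 tested names a call towards plasma. Of the 7 names, miR-133a, miR-145, miR-34a and miR-199a-5p had only 0.805 to 3.22 RPMM in that library, where 3 reads are 0.268 RPMM. miR-143, known from smooth muscle, had 387 RPMM there and 49.5 to 72.0 in the blood cells of the other cows. What these names share in that library was not tested. Without cow 44, miR-215 had 20816 ± 9603 RPMM in plasma against 8.87 ± 3.39 in blood cells (SD, n = 3 each), with a log2 fold change of 9.53.

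miRNAs of liver and of epithelium varied between plasma libraries in different ways, and miR-192 and miR-215 did too. Of 4 liver miRNAs, miR-122, the main miRNA of hepatocytes, and the human-homologue name miR-802 were abundant enough to be tested. Both were called higher in plasma, as were 45.5% of all names tested, though both reached that abundance through plasma alone. With every one of the 704 names tested and no filter, 2 of the 4 were called higher and 0 lower, where 25.3% of all names were called higher and 21.7% lower. The plasma of cow 47 held 814 RPMM of miR-122 against 36.8 to 75.0 in the other cows, and 269 RPMM of miR-802 against 51.2 to 97.7. That library also had the highest miR-192, at 1.37 times the median of the other cows, and the lowest miR-215. The rest of the order differed, as both liver names were lowest in cow 45 and miR-192 was lowest in cow 46. Whether miR-192 varies between cows with the liver names was not tested. The summed liver list had 100 to 1107 RPMM in plasma against 0.689 to 4.00 RPMM in blood cells, and miR-122 had 3 reads in all in the blood cell libraries.

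The epithelial list ran the other way in cow 47. Of the 9 table names in this list, 5 were tested and called higher in plasma (miR-141, miR-200a, miR-205, miR-375 and miR-429). Among all names tested 45.5% were called higher, and 4 of the 5 passed the abundance filter through plasma alone. The 9 include a human-homologue entry of miR-429 beside the bovine one, and no entry of miR-203. With no filter, 7 of the 9 were called higher and 0 lower, against the same 25.3% and 21.7% of all names. miR-141, of the miR-200 family that keeps epithelial cells in their state, had 6054, 4657, 3379 and 1976 RPMM in the plasma of cows 44 to 47, and 5.08 to 6.62 RPMM in blood cells. miR-200a of the same family had 1408, 941, 912 and 517 RPMM in the same plasma libraries. Of the 5 tested names, 3 were highest in cow 44 as miR-215 was (miR-141, miR-200a and miR-429). In contrast, miR-205, with 1254 RPMM, and miR-375, with 5152 RPMM, were highest in cow 46, and all 5 were lowest in cow 47. Low RPMM in the plasma of cow 47 was common among all names. Over 208 tested names the median ratio of that library to the median of the other cows was 0.724. In the plasma of cows 44, 45 and 46 this median ratio was 0.994 to 1.13. The summed list had 13720, 9614, 11115 and 5062 RPMM in the plasma of cows 44 to 47, so that cow 46 stood above cow 45, unlike in miR-215, and 45.6 to 68.0 RPMM in blood cells.

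The lists of blood cell miRNAs also differed between the plasma libraries. The summed leukocyte list had 70792, 61047, 55971 and 33456 RPMM in the plasma of cows 44 to 47, the same order as miR-215, and the red blood cell list had 89165, 145518, 161148 and 180387 RPMM, the reverse order. The red blood cell sum follows its most abundant name, miR-486, at 75232, 126420, 138894 and 162555 RPMM in the plasma of cows 44 to 47. In contrast, miR-451 was highest in cow 46 (21769 RPMM) and miR-144 in cow 45 (758 RPMM). The leukocyte names did not share 1 order either, as 3 of the 8 were highest in cow 44 and 3 in cow 45, though 6 were lowest in cow 47. The part of the epithelial, leukocyte and red blood cell levels in the spread of miR-215 was not tested.

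**Figure D4:**
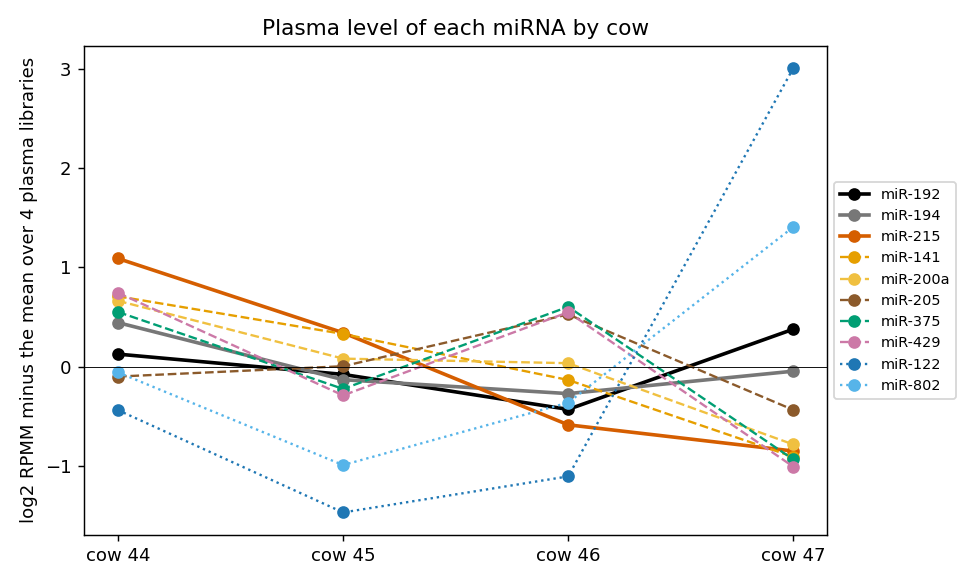
log2 RPMM in the plasma of each cow minus the mean over the 4 plasma libraries, for the 3 miRNAs (solid lines), the 5 tested epithelial miRNAs (dashed) and the 2 tested liver miRNAs (dotted); lines only join the values of a miRNA. miR-215 is highest in cow 44 and lowest in cow 47 like miR-141, miR-200a and miR-429. miR-205 and miR-375 are highest in cow 46 and lowest in cow 47. miR-192, miR-122 and miR-802 have their highest value in cow 47, but miR-192 is lowest in cow 46 and both liver names in cow 45. RPMM are not TMM-scaled, and in cow 47 the median ratio to the other cows was 0.724 over 208 tested names.

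The miRNAs most like each of the 3 were found by the root mean square difference of log2(RPMM + 1), each name centred on its own mean, among the 208 other names tested. This is a description over 8 libraries that is led by the gap between the fractions. The nearest to miR-192 were miR-22-5p (0.25 log2 units), miR-410 (0.29) and the human-homologue name miR-210-3p (0.29), which had 463 ± 66.7, 166 ± 30.5 and 678 ± 105 RPMM in plasma, against 7.67 ± 1.90, 1.18 ± 0.10 and 9.02 ± 0.71 RPMM in blood cells (SD, n = 4). The nearest to miR-194 were miR-320a (0.20), miR-660 (0.22) and miR-99a-3p (0.24). The nearest to miR-215 were miR-10b (0.84), miR-200a (0.95) and miR-455-5p (1.08), all farther from it than the nearest names were from its relatives. None of the 3 was among the nearest names of another, the closest place being that of miR-192 in the order from miR-215, at 28 of 208.

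Over the 4 plasma libraries alone, where only differences between cows count, miR-33a (0.22 log2 units), miR-141 (0.30) and miR-142-3p (0.33) were nearest to miR-215. miR-33a, which acts in cholesterol export, had 120, 95.2, 55.5 and 42.0 RPMM in the plasma of cows 44 to 47, the same order as miR-215, and 8.91 to 14.6 RPMM in blood cells. The nearest to miR-192 were miR-410 (0.11), miR-148a (0.11) and miR-99a-5p (0.14), and the nearest to miR-194 were miR-335 (0.05), miR-381 (0.11) and miR-380-3p (0.14). From miR-192, miR-194 stood at place 14 of 208 and miR-215 at place 181, and from miR-194, miR-192 stood at place 41. The difference between miR-192 and miR-194, 0.28 log2 units, was about that of either from a name with no spread over the cows (0.30 for miR-192 and 0.27 for miR-194).

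Other miRNAs linked to p53 were called in both directions. Of 9 names listed, 7 were tested, of which 3 were called higher in plasma and 4 lower, where 45.5% of all names tested were called higher and 39.7% lower, with a median log2 fold change of -1.96 against 0.08 over all 209 names. With no filter, 3 of the 9 were called higher and 6 lower, against 25.3% and 21.7% of all 704 names. miR-34a, the best known miRNA target of p53, had 24.2 to 56.9 RPMM in plasma, against 0.414 to 1.34 RPMM in blood cells, and was called higher in plasma at 4.19, as were miR-145 at 6.41 and miR-143 at 5.50. miR-34a and miR-145 reached the abundance for testing through plasma alone. miR-107 was lower at -7.38, with 1.38 to 3.46 RPMM in plasma against 104 to 139 RPMM in blood cells, and miR-15a, miR-16a and miR-16b were lower at -1.96, -3.63 and -3.26 (edgeR's quasi-likelihood test for all 7). With library totals alone miR-15a was at -0.29 and no longer called (adjusted p = 0.0785 from edgeR's test), and the other 6 kept their direction.

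The blood cell lists served as a check of the fractions. The 3 red blood cell miRNAs were called lower in plasma, at -5.76 to -3.08, as were 39.7% of all 209 names tested. Of 8 leukocyte miRNAs, such as miR-223 of myeloid cells and miR-150 of lymphocytes, 5 were called lower and 3 were not called with TMM. With no filter 3 of the 8 were called lower, as were 21.7% of all 704 names. With library totals alone 6 were called higher, as were 67.0% of all names tested. The direction of the leukocyte names is thus not settled by the read counts. The 3 gut and liver miRNAs were called higher under either scaling.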

How the data were processed

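Small RNA libraries of paired plasma and blood cells from 4 cows were sequenced by the authors, who left out reads without adapter, with undetermined bases or too short, and mapped the rest by sRNAbench, with Bowtie 0.12.9, onto bosTau4 and miRBase. They deposited raw read counts per mature miRNA name. They also deposited a normalised score, RPMM, whose denominators differ between bovine names and human homologues; here RPMM of human homologues were computed from counts with the bovine denominator. The 209 of 704 names that reached 25 RPMM in 3 or more of the 4 libraries of a fraction were tested. Counts were compared with edgeR 4.0.16 (limma 3.58.1, R 4.3.3) by the quasi-likelihood test with TMM factors, the cow as a blocking term and adjusted p-values (Benjamini-Hochberg) at 0.05; standard errors are the absolute log2 fold change over the square root of F. The study names edgeR's paired mode on RPMM. Pairing comes from the animals. The departures of a cow's 2 libraries from the mean of each fraction correlated at 0.0508 to 0.234 across names, against -0.174 to 0.106 for different cows. These ranges overlap, so the correlations do not settle the pairing. A floor of 3 reads is 0.696 to 2.07 RPMM in plasma and 0.207 to 0.268 in blood cells. The test was also run on simulated counts with equal numbers of names raised and lowered. Those counts lack the shift in scale between these fractions, so that run does not judge the calls made here. The 3 miRNAs, the lists and the rule for named miRNAs (the 3 members, the 3 nearest names to each over 8 and over 4 libraries, and up to 6 tested names per list) were chosen with earlier results of these data known. Alternatives were the fit without the block, RLE factors, library totals, DESeq2 1.42.0, the likelihood ratio test, other filters, bovine names only, the summed names and leaving out each cow. RT-qPCR values and mature sequences were not used here.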

Additional observations from a re-analysis of the deposited data

Results flagged for a closer look

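The summed level of the liver list in plasma was highest in cow 47, at 1107 RPMM against 100 to 177 in the other cows, and the gap to the next library was 0.924 of the range, above the critical value of Dixon's test at 95% for 4 libraries. It was the only such case among 22 sets of 4 libraries checked, where chance gives about 1 in 20. miR-215 in blood cells came near it, with a gap of 0.815 for cow 44.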

How the results depend on the processing

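The log2 fold changes of miR-192, miR-194 and miR-215 kept their direction and their call under all 13 alternatives, at 3.91 to 5.71, 1.18 to 2.95 and 4.38 to 10.97, with adjusted p of at most 9.95e-05, 0.00604 and 9.66e-05. The lowest value of miR-215 is that of its reads summed with miR-192. Leaving out each cow gave 3.91 to 4.25, 1.18 to 1.43 and 9.13 to 9.53. Without the cow as a block they were 4.10, 1.31 and 9.06, and 174 names were called against 178. Without a filter 331 of 704 names were called, since more names were tested. For the ratios, permuting the 8 libraries without the pairing gave p = 0.0286 (exact, adjusted over 3), because more arrangements exist. The log2 differences were the same, at 5.26, -2.76 and 8.02. That p is the smallest this permutation allows, and any ratio without overlap between the fractions reaches it. Leaving out each cow gave 4.88 to 5.52 for miR-215 per miR-192, -2.82 to -2.69 for miR-194 per miR-192 and 7.70 to 8.30 for miR-215 per miR-194. Adding human-homologue names of the same hairpins was not run, as the table analysed holds none. Depth limits miR-215 in blood cells, at 62 to 459 reads.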
